A study of Homo sapiens with 9 samples.

Results

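The subject of this report is the set of long noncoding RNA (lncRNA) genes that were well counted in RNA sequencing of 786-0 cells, an established clear cell renal cell carcinoma line. A gene entered the set if GENCODE release 44 types it as lncRNA and its raw read count averaged at least 200 over the 9 libraries. This gave 147 genes, out of 14734 lncRNA genes in the count table, of which 7153 had any read, and out of 58735 gene identifiers in all. The members were thus chosen by their mean count over all groups, so the levels below are a description, while the differences between groups played no direct part in the choice. Just inside the limit were ENSG00000271533 (mean count 205), ZNF213-AS1 (204) and EPB41L4A-AS1 (202), and just outside it MIR222HG (199.9), ENSG00000261061 (197) and ENSG00000262879 (193). In 128 members the mean count was at least 200 in each group, and 19 members fell under 200 in at least 1 group, so a member of the latter kind could have passed through the group in which it was high. Among these 19 were MIR1915HG and ENSG00000261786, under 200 in WT, and LINC01320, under 200 with PT2385 and in KO. Others named below were LINC02615 and LINC01111, under 200 with PT2385, and LINC03057 and FOXP1-IT1, under 200 in KO. ANXA2R-OT1 was under 200 in WT and with PT2385, ZNF213-AS1 in WT and in KO, and LINC01508 and NNT-AS1 in WT. All 147 members passed the filter on low counts in every comparison, and the lowest count of any member in any library was 106.

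lncRNAs are transcripts that resemble mRNA in being capped, spliced and often polyadenylated, but they do not encode a recognised protein. Some build nuclear structures, as NEAT1 does for paraspeckles, some carry small nucleolar RNAs (snoRNAs) or microRNAs (miRNAs) that are cut out of their transcript, and many are transcribed antisense to, or divergently from, a coding gene. In renal carcinoma cells that have lost VHL, hypoxia-inducible factors stay active in the presence of oxygen, and lncRNA genes have been listed among their targets.

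The samples were 3 libraries of parental 786-0 cells (WT), 3 of the same WT cells treated with 10 µM PT2385 for 48 h, and 3 of a HIF2a knockout (KO) of the line. PT2385 is a small molecule that binds HIF2α and blocks its pairing with HIF1β. All cells were grown at 21% oxygen in DMEM with 5 mM glucose and 10% serum, and the labels name no vehicle for the WT group. Neither the way the knockout was made, nor whether it is 1 clone, nor whether the replicates were separate cultures is given in the sources used here, so the p-values measure the spread between these samples, which may be technical. EPAS1, which encodes HIF2α, was at 233 to 271 CPM (reads scaled to a common library total) in WT and 219 to 248 CPM with PT2385, against 20.3 to 25.0 CPM in the KO. The libraries held 11881000 to 14730081 counted reads, and their TMM scaling factors lay between 0.988 and 1.02. Of 12 renal markers, LRP2 and CA9 had at most 10 counts in every library, and so did all 3 endothelial (PECAM1, CDH5, VWF) and all 3 leukocyte markers (PTPRC, CD68, CD3E). Of 4 fibroblast markers COL1A2 and DCN had 0 counts, while COL1A1 had 24 to 104 counts and was lower in KO than in WT (log2 fold change -1.10, adjusted p = 0.00346), and PDGFRB had 27 to 31 counts in WT, 23 to 37 with PT2385 and 0 to 2 in KO (adjusted p = 4.56e-05). The summed level of the 4 was 6.95 to 8.90 CPM in WT, 8.33 to 10.6 CPM with PT2385 and 2.01 to 3.10 CPM in KO. Of the 10 renal markers that could be tested, 2 were higher and 2 lower with PT2385, and 3 higher and 2 lower in KO, among them PAX2 (log2 fold change -1.30), MME (-1.48) and KRT18 (0.85). The part of these differences in the results below was not tested.

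The reads on these 147 genes were concentrated in a few of them. MALAT1, a nuclear speckle RNA, held 46.6% of the members' reads, MALAT1 and the paraspeckle RNA NEAT1 together 53.9%, and the 10 most counted members 65.8%. The members in turn held 69.9% of all reads on lncRNA genes. The median mean count was 352, within a range of 202 to 86290, and the median merged exonic length was 6.99 kb, within a range of 0.826 to 205 kb. Read counts favour long transcripts, so levels were compared between genes only per kb of annotated exon. On that scale WT cells held 553 CPM per kb for MALAT1 and 58.7 for NORAD, which binds Pumilio proteins in the cytoplasm. Next came SNHG16 (50.6), SNHG3 (43.5), ENSG00000273760 (39.6), CCDC183-AS1 (37.3), ENSG00000236453 (35.9) and NEAT1 (33.3). Among replicates the median coefficient of variation of a member's CPM was 7.70% in WT, 8.36% with PT2385 and 9.27% in KO.

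**Figure D1:**
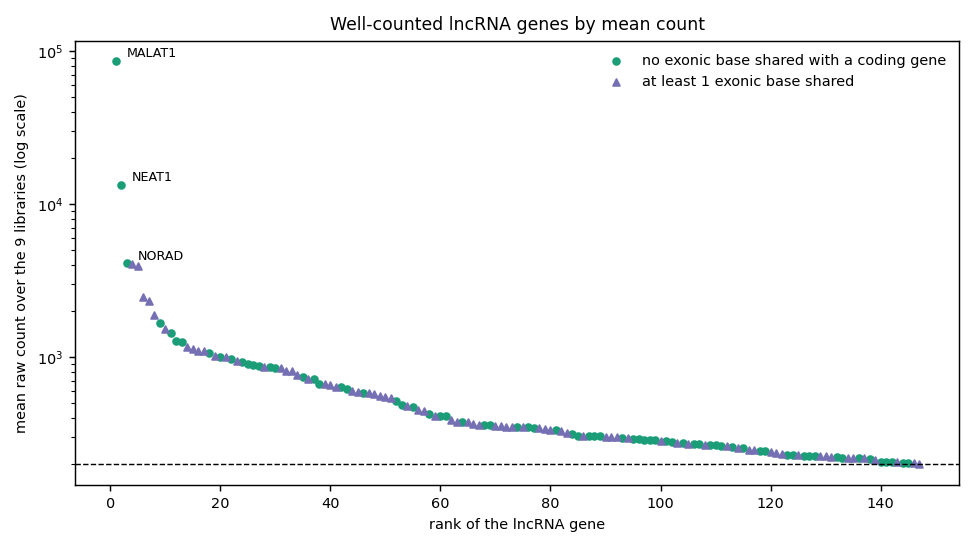
Each point is 1 of the 147 lncRNA genes, ordered by its mean raw count over the 9 libraries (vertical axis, log scale), with the limit of 200 dashed. MALAT1 (86290) and NEAT1 (13422) stand above a slope that falls to 202, and green circles mark the 72 genes that share no exonic base with a coding gene.

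The share of all counted reads that fell on the members was 1.40, 1.31 and 1.25% in the WT libraries, 1.53, 1.44 and 1.23% with PT2385, and 1.55, 1.66 and 1.31% in KO. The groups overlapped. Means were 1.32% ± 0.0737 in WT, 1.40% ± 0.151 with PT2385 and 1.51% ± 0.181 in KO (SD, n = 3), and neither difference from WT passed an exact two-sided permutation test (p = 0.5 for PT2385 and p = 0.3 for KO), for which 3 against 3 cannot go below 0.1. Without MALAT1 and NEAT1 the share was 0.671% ± 0.00917 in WT, 0.637% ± 0.0183 with PT2385 and 0.646% ± 0.0177 in KO, which turns the direction of both differences (exact permutation p = 0.1 and p = 0.2).

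Most members lie close to a coding gene. In the annotation, 56 share exonic bases with a coding gene on the opposite strand, 19 with one on the same strand, 10 start within 1000 bases of a coding gene that runs the other way, 5 overlap only the span of a coding gene on the opposite strand, 3 only its span on the same strand, and 54 do none of these. By exonic bases on either strand, 75 members share at least 1 with coding exons and 72 share none. The share was 100% in ENSG00000259623, 99.9% in ENSG00000270696 and 99.1% in ENSG00000187951, whose exons lie in the coding gene ENSG00000284906. Whether the counting used strand is not given in the sources used here, and without strand the reads of a gene and of its antisense partner cannot be told apart where their exons overlap.

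Upon PT2385 treatment, 15 of the 147 lncRNA genes passed an adjusted p of 0.05 in edgeR's quasi-likelihood test (called, in what follows), 4 higher and 11 lower than in WT. Over all genes tested 3.08% were higher and 4.62% lower. The 15 are 10.2% of the members, against 7.7% of 15089 genes tested and 9.98% of the 8477 genes with a mean count of at least 200, so the share lay near the background. The median log2 fold change of the members was -0.08, and 0.00 over all genes tested, and 52 of 147 members had a positive log2 fold change, 35.4% against 50.3% of all genes. CPM did not overlap between the groups in 48 members (32.7%), against 26.1% of genes tested, and 4 of the called genes changed by at least 2-fold. Here and in the KO comparisons, the overlap share was not set against genes with a mean count of at least 200, so no excess is read from it. The 2-fold counts have no share over all genes beside them. With the replicate number as a block, since same-numbered PT2385 and WT libraries deviated together, 39 members were called, 12 higher and 27 lower, and they included all 15. That is 26.5% of members, against 15.3% of genes tested (6.83% higher and 8.45% lower) and 21% of those with a mean count of at least 200 in the same fit. Without PT2385 replicate 2 the 15 calls became 7, without WT replicate 1 they became 9, and without WT replicate 2 they became 8. LUCAT1, LINC01320, MIR193BHG, LINC02615, APCDD1L-DT and MIR1915HG were called in all 6 fits with a library left out, and the other 9 missed the threshold in at least 1, with a largest adjusted p between 0.0624 (ENSG00000261786) and 0.183 (PVT1).

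The lower genes were led by LUCAT1, LINC01320 and MIR193BHG, and in each of these the KO libraries were low as well. LUCAT1 (ENSG00000248323, chr5:91054834-91314547, minus strand), known as a lung cancer associated transcript and as a feedback regulator of interferon genes, stood at 163, 132 and 153 CPM in the WT libraries, 27.1, 26.2 and 21.8 CPM with PT2385 and 37.9, 28.7 and 31.9 CPM in KO. Both groups lay far under every WT library. LUCAT1 was 5.99-fold lower with PT2385 (log2 fold change -2.58, standard error 0.10, adjusted p = 9.58e-09), and in KO it was 4.51-fold lower (log2 fold change -2.17, standard error 0.11, adjusted p = 9.9e-08). The PT2385 libraries all lay under the KO libraries, but the direct comparison missed the threshold (log2 fold change 0.39, standard error 0.12, adjusted p = 0.0516), although it passed in DESeq2 (adjusted p = 0.0324). The coding gene whose span LUCAT1 overlaps on the opposite strand, ADGRV1, had a mean count of 0.667.

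LINC01320 (ENSG00000228262, chr2:33706886-34738231, plus strand), which spans about a megabase and overlaps no coding gene, had 49.4, 43.2 and 50.5 CPM in WT, 12.4, 11.8 and 7.42 CPM with PT2385 and 9.74, 15.5 and 10.3 CPM in KO. Its log2 fold change was -2.19 with PT2385 (standard error 0.15, adjusted p = 1.69e-06) and -1.99 in KO (standard error 0.15, adjusted p = 3.17e-06). The PT2385 and KO libraries overlapped each other and did not reach any WT library. MIR193BHG (ENSG00000262454, chr16:14301389-14331067, plus strand), the host transcript of miR-193b and miR-365a, had 52.7, 48.8 and 49.7 CPM in WT, 14.5, 18.2 and 17.1 CPM with PT2385 and 14.8, 17.5 and 13.4 CPM in KO. It fell 3.03-fold with PT2385 (log2 fold change -1.60, standard error 0.095, adjusted p = 4.51e-07) and 3.28-fold in KO (log2 fold change -1.71, standard error 0.10, adjusted p = 4.9e-07). Between KO and PT2385 the log2 difference was -0.13, with a 95% interval from -0.39 to 0.14.

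The sequences just upstream of LUCAT1 and MIR193BHG are shown because, with LINC01320, which has no entry in the promoter table used here, these were the most strongly lowered members in both comparisons with WT. That of MIR1915HG is added because this gene moved the other way. Each run holds the 250 bases before and the 50 bases after the RefSeq start on GRCh38.p14, 5′ to 3′ on the strand of the gene, with any match to the searched motifs in capitals.
LUCAT1, chr5:91314353-91314652, minus strand: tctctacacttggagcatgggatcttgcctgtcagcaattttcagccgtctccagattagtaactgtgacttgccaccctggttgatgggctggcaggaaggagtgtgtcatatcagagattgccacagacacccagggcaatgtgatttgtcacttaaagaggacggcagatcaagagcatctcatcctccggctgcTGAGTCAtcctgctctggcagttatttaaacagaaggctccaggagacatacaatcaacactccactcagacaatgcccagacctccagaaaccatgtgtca
MIR193BHG, chr16:14301131-14301430, plus strand: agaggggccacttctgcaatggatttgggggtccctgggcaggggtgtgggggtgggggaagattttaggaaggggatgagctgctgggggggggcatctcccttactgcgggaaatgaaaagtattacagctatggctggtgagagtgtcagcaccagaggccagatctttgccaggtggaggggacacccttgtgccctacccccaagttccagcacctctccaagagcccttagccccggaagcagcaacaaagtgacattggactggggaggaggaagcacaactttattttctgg
MIR1915HG, chr10:21497211-21497510, minus strand: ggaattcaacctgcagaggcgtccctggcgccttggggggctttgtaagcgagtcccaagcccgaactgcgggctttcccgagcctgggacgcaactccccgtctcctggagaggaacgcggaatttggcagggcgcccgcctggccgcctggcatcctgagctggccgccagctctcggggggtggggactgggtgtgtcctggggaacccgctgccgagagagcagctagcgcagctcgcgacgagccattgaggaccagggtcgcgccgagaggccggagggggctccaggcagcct
The core of the hypoxia response element, searched as ACGTG and GCGTG on both strands, is absent from all 3 windows. It is present in 57 of the 89 members with a promoter in the RefSeq table (64.0%) and in 48.4% of the 27305 promoters of 300 bases. The window of LUCAT1 holds a single TGAGTCA, the AP-1 consensus, starting 52 bases before the start site. That motif was searched after the sequence was seen, and 6 of the 89 members (6.74%) and 4.92% of all promoters hold it on either strand. A letter match is no evidence of binding, and its absence from this window says nothing about more distant sites.

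**Figure D2:**
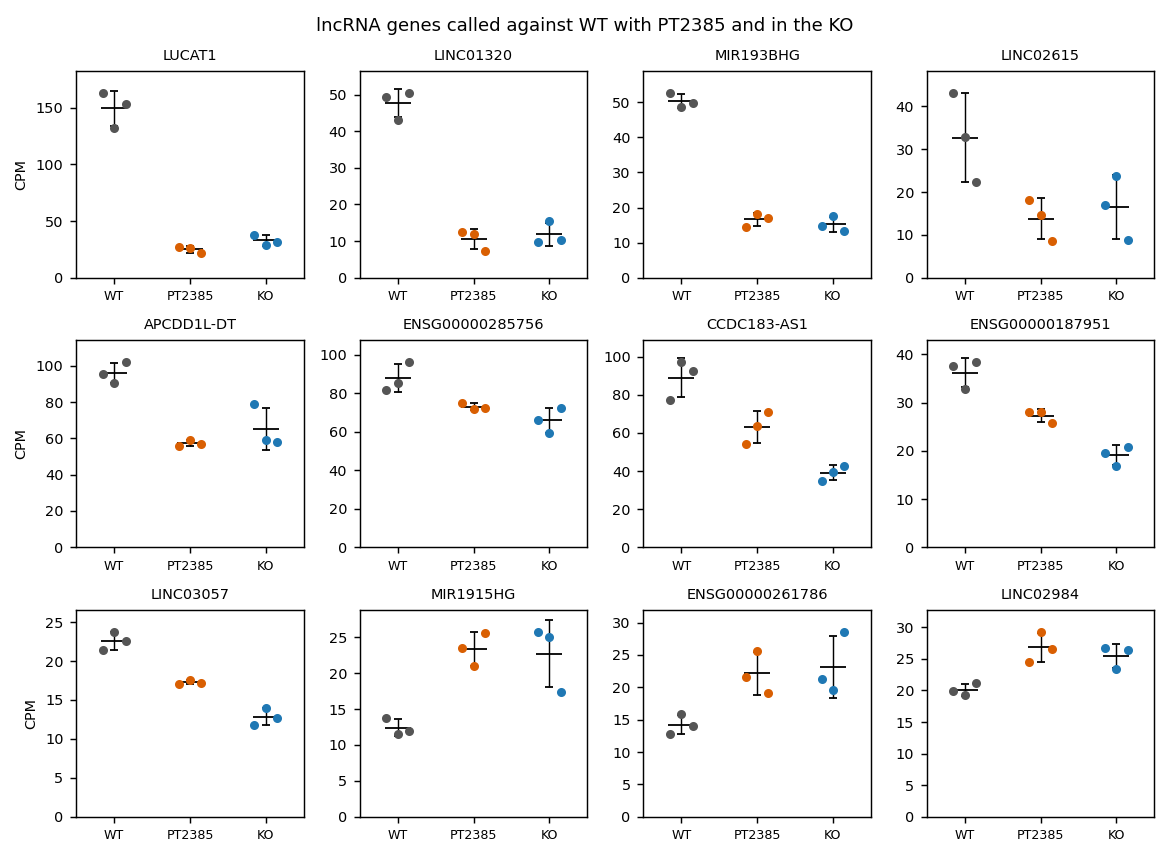
CPM of 12 lncRNA genes in each library (points), with the group mean and SD (black), for WT, PT2385 and KO; each panel starts at 0 and has its own scale. In the first 9 panels both treated and KO means lie under WT, from LUCAT1 (149, 25.0 and 32.8 CPM) to LINC03057 (22.6, 17.2 and 12.8 CPM), and in MIR1915HG, ENSG00000261786 and LINC02984 both lie above it.

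Other lncRNA genes fell by less with PT2385 and are given with their KO values beside them, since both comparisons use the same WT libraries. APCDD1L-DT, a divergent transcript of the Wnt inhibitor gene APCDD1L, had 95.8, 90.6 and 102 CPM in WT, 55.7, 59.2 and 57.2 CPM with PT2385 and 78.8, 58.9 and 58.1 CPM in KO. It fell by 0.75 on the log2 scale with PT2385 (standard error 0.068, adjusted p = 2.03e-05) and by 0.55 in KO (standard error 0.11, adjusted p = 0.00283). KO replicate 1 was the highest of the treated and KO libraries, still under all WT libraries. ENSG00000285756, on the X chromosome, had log2 fold changes of -0.27 (adjusted p = 0.0409) and -0.40 (adjusted p = 0.00443). LINC02615 stood at 43.1, 32.7 and 22.3 CPM in WT, 18.1, 14.6 and 8.61 CPM with PT2385 and 16.9, 23.8 and 8.88 CPM in KO, with replicate 3 the lowest of each group. Its log2 fold change was -1.26 with PT2385 (standard error 0.25, adjusted p = 0.00924), but its KO value of -0.97 (standard error 0.30, adjusted p = 0.0308) came from groups that overlap, was called in 3 of the 6 fits with a library left out and had an adjusted p of 0.126 in DESeq2.

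In a further 3 genes the KO lay under the PT2385 group as well. CCDC183-AS1, antisense to the coiled-coil gene CCDC183, had 77.3, 97.03 and 92.4 CPM in WT, 54.1, 63.8 and 70.9 CPM with PT2385 and 34.9, 39.6 and 42.8 CPM in KO, with no overlap between any groups. Its log2 fold changes were -0.50 (standard error 0.11, adjusted p = 0.0125) with PT2385, -1.17 (standard error 0.099, adjusted p = 7.24e-06) in KO and -0.69 (standard error 0.11, adjusted p = 0.00148) between KO and PT2385. The same order was measured for LINC03057 and ENSG00000187951. LINC03057 averaged 22.6, 17.2 and 12.8 CPM in WT, PT2385 and KO, and its KO against PT2385 difference was -0.43 (adjusted p = 0.0213). ENSG00000187951 averaged 36.2, 27.3 and 19.1 CPM, with a KO against PT2385 difference of -0.51 (adjusted p = 0.00661).

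Of the genes that rose with PT2385, MIR1915HG, the host transcript of miR-1915, moved most. It had 13.8, 11.5 and 11.97 CPM in WT, 23.5, 20.96 and 25.6 CPM with PT2385 and 25.7, 24.99 and 17.3 CPM in KO, and every library of both groups lay above WT. Its log2 fold change was 0.91 with PT2385 (standard error 0.12, adjusted p = 0.000332) and 0.88 in KO (standard error 0.16, adjusted p = 0.00148). ENSG00000261786 rose by 0.63 on the log2 scale with PT2385 (adjusted p = 0.0103) and by 0.72 in KO (adjusted p = 0.00384). MIR1915HG and ENSG00000261786 had mean counts under 200 in WT, so their place in the set depended on the groups where they were high. LINC02984 rose by 0.41 (adjusted p = 0.0223) and 0.35 (adjusted p = 0.0162).

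A last 3 genes were called with PT2385 and not in KO against WT. PVT1, the host of several miRNAs beside the MYC gene, had 87.6, 86.8 and 84.6 CPM in WT, 75.4, 71.9 and 73.5 CPM with PT2385 and 95.1, 74.6 and 90.3 CPM in KO. The PT2385 libraries lay under every WT library, while the KO libraries spanned the WT range (log2 fold change -0.23, standard error 0.062, adjusted p = 0.0401 with PT2385, and log2 fold change 0.02, standard error 0.086, adjusted p = 0.902 in KO). The direct KO against PT2385 difference in PVT1 did not pass without a block (log2 fold change 0.23, standard error 0.092, adjusted p = 0.112). It passed once same-numbered libraries were blocked (adjusted p = 0.0433). Whether PVT1 differed between KO and PT2385 thus depended on the fit. In DESeq2 PVT1 missed the threshold with PT2385 against WT (adjusted p = 0.0662) and between KO and PT2385 (adjusted p = 0.125). NOP14-AS1 fell by 0.39 with PT2385 (adjusted p = 0.0337) and had a value of -0.10 in KO (adjusted p = 0.565). PRR7-AS1 had 22.6, 23.7 and 26.8 CPM in WT, 30.3, 33.9 and 31.9 CPM with PT2385 and 21.03, 13.95 and 24.4 CPM in KO. It rose by 0.39 with PT2385 (adjusted p = 0.0236), and here the direct comparison passed, with KO 0.70 lower than PT2385 on the log2 scale (adjusted p = 0.0136).

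In KO against WT, 49 of the 147 lncRNA genes were called, 21 higher (14.3%) and 28 lower (19%), and over all genes tested 14.7% were higher and 15.4% lower. The 49 are 33.3% of members, against 30.1% of 15192 genes tested and 36.2% of genes with a mean count of at least 200, again near the background. Their median log2 fold change was -0.04, against 0.00 over all genes tested, and CPM did not overlap in 68 members (46.3%), against 43.8% of genes tested. A change of at least 2-fold was called in 7 members. In KO against PT2385, 28 members were called, 14 in each direction, or 19% against 18.8% of 15402 genes tested (8.47% higher and 10.3% lower) and 22.1% of genes with a mean count of at least 200. CPM did not overlap in 48 members (32.7%), against 35.4% of genes tested. The 28 calls became 16 without KO replicate 1, 14 without PT2385 replicate 2 and 18 without PT2385 replicate 3. Of the 49 calls against WT 29 held in all 6 fits with a library left out, and of the 28 against PT2385 13 did, with a largest adjusted p of up to 0.178 and 0.181 in the rest.

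The most counted gene to differ in KO was NEAT1 (ENSG00000245532, chr11:65422774-65445540, plus strand), the scaffold of paraspeckles. It had 743, 752 and 781 CPM in the WT libraries, 745, 886 and 474 CPM with PT2385 and 1538, 1668 and 1495 CPM in KO. Every KO library lay above every other library, and PT2385 replicate 3 was the lowest of all. NEAT1 was 2.09-fold higher in KO than in WT (log2 fold change 1.06, standard error 0.059, adjusted p = 2.52e-07) and 2.23-fold higher than with PT2385 (log2 fold change 1.16, standard error 0.17, adjusted p = 0.000941), while PT2385 against WT gave -0.12 (95% interval from -0.43 to 0.20, adjusted p = 0.735). MALAT1, its neighbour on chromosome 11, had 6466, 5804 and 5047 CPM in WT, 7862, 7138 and 5697 CPM with PT2385 and 7259, 8576 and 5327 CPM in KO. Replicate 3 was the lowest in each of the 3 groups, and the groups overlapped. MALAT1 was not called with PT2385 (log2 fold change 0.25, standard error 0.11, adjusted p = 0.203) or in KO (log2 fold change 0.30, standard error 0.14, adjusted p = 0.142). Both differences from WT passed once same-numbered libraries were blocked (adjusted p = 4.31e-05 for PT2385 and 0.0149 for KO).

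**Figure D3:**
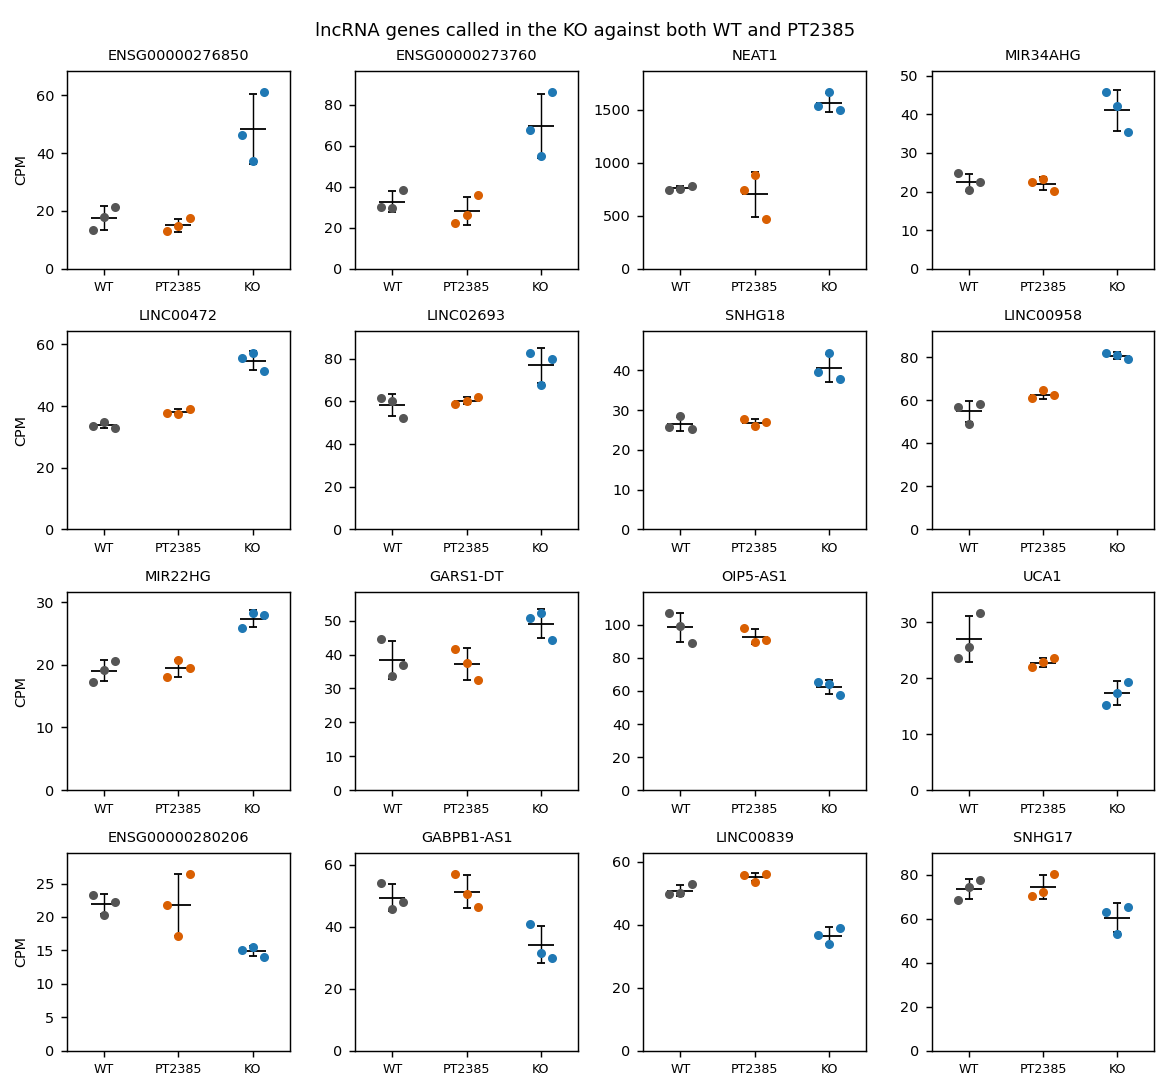
CPM of the 16 lncRNA genes called in KO against both WT and PT2385, by library (points) with mean and SD (black); panels start at 0 on their own scales. The first 10 genes lie higher in KO, such as NEAT1 at 1495 to 1668 CPM against 474 to 886 CPM in the other groups, and the last 6, from OIP5-AS1 on, lie lower.

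The largest rises in KO against WT among the members were in a pair of unnamed genes on chromosome 10, ENSG00000276850 and ENSG00000273760, of which the second lies within the span of the first on the same strand. ENSG00000276850 had 13.3, 17.9 and 21.5 CPM in WT, 12.9, 14.97 and 17.4 CPM with PT2385 and 46.3, 37.4 and 61.2 CPM in KO, and was 2.77-fold higher in KO than in WT (log2 fold change 1.47, standard error 0.19, adjusted p = 0.000157). ENSG00000273760 had 29.97, 29.6 and 38.5 CPM in WT, 22.5, 26.1 and 35.8 CPM with PT2385 and 67.6, 55.2 and 86.3 CPM in KO (log2 fold change 1.11, standard error 0.15, adjusted p = 0.000259). In both genes the KO libraries lay above all others. They are not independent measurements, and they lie beside NPY4R2, which has a near-identical copy, so the assignment of reads in this region is uncertain.

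MIR34AHG, the host of the p53-induced miR-34a, had 24.7, 20.3 and 22.4 CPM in WT, 22.5, 23.4 and 20.2 CPM with PT2385 and 45.8, 42.00 and 35.3 CPM in KO. It rose 1.84-fold in KO (log2 fold change 0.88, standard error 0.11, adjusted p = 0.000164), whereas its PT2385 value was -0.03 with a 95% interval from -0.24 to 0.17, and the direct difference passed (log2 fold change 0.90, standard error 0.11, adjusted p = 0.000322). LINC00472, which hosts miR-30a and miR-30c, had 33.7, 34.7 and 32.99 CPM in WT, 37.8, 37.5 and 39.04 CPM with PT2385 and 55.4, 57.3 and 51.3 CPM in KO (log2 fold change 0.71, standard error 0.075, adjusted p = 3.94e-05). The 3 groups did not overlap in LINC00472, and PT2385 lay between WT and KO without passing the test against WT (adjusted p = 0.213). LINC00958, reported in bladder and other carcinomas, had 57.00, 49.1 and 58.3 CPM in WT, 60.9, 64.6 and 62.5 CPM with PT2385 and 82.2, 80.9 and 79.1 CPM in KO (log2 fold change 0.57, standard error 0.075, adjusted p = 0.000191). SNHG18 rose by 0.63 (adjusted p = 0.000431), MIR22HG by 0.54 (adjusted p = 0.00174), LINC02693 by 0.41 (adjusted p = 0.00595) and GARS1-DT by 0.37 (adjusted p = 0.024), and in each the KO also lay above PT2385. GARS1-DT was called in 2 of the 6 fits with a library left out, and its WT and KO libraries overlapped. A further 8 members were called higher in KO against WT and in neither other comparison, from SNHG4 (0.24) to LINC00205 (0.53).

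Among genes lower in KO than in both other groups, OIP5-AS1 was the most counted. OIP5-AS1, a cytoplasmic RNA also known as cyrano that sponges HuR and pairs with miR-7, had 107, 99.3 and 89.3 CPM in WT, 98.2, 89.6 and 91.1 CPM with PT2385 and 65.3, 64.4 and 57.7 CPM in KO. KO lay under every other library (log2 fold change -0.65, standard error 0.083, adjusted p = 0.000165 against WT, and log2 fold change -0.58, standard error 0.078, adjusted p = 0.000488 against PT2385). UCA1, a lncRNA first described in urothelial carcinoma, had 23.7, 25.6 and 31.7 CPM in WT, 22.1, 22.8 and 23.6 CPM with PT2385 and 15.2, 17.4 and 19.4 CPM in KO. No groups overlapped, and UCA1 fell by 0.62 in KO against WT (adjusted p = 0.00383), by 0.40 against PT2385 (adjusted p = 0.0309), and had a PT2385 value of -0.24 (adjusted p = 0.229). GABPB1-AS1 (-0.52, adjusted p = 0.00648), ENSG00000280206 (-0.55, adjusted p = 0.0021), LINC00839 (-0.46, adjusted p = 0.00099) and SNHG17 (-0.27, adjusted p = 0.0355) were also lower in KO against WT on the log2 scale. A further 13 members were called lower in KO against WT and in neither other comparison, from MUC20-OT1 (-0.23) to FOXP1-IT1 (-0.68).

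Between KO and PT2385, a few genes differed that were called in neither comparison with WT. MIR600HG (0.36, adjusted p = 0.0241), LINC01111 (0.56, adjusted p = 0.0456), NNT-AS1 (0.39, adjusted p = 0.0266) and ANXA2R-OT1 (0.50, adjusted p = 0.0245) were higher in KO on the log2 scale. ENSG00000272405 (-0.50, adjusted p = 0.0294), WARS2-AS1 (-0.36, adjusted p = 0.0326), LINC01508 (-0.35, adjusted p = 0.043) and ZNF213-AS1 (-0.36, adjusted p = 0.0423) were lower in KO. In all of these 8 genes the KO and PT2385 libraries did not overlap, and each was called in at most 3 of the 6 fits with a library left out. ZNF213-AS1 was called in 0 of the 6, and in DESeq2 neither ZNF213-AS1 nor LINC01508 passed (adjusted p = 0.102 and 0.0855). None of the 3 comparisons called the remaining 87 members, among them NORAD, which had 305, 324 and 323 CPM in WT, 303, 305 and 318 CPM with PT2385 and 317, 339 and 290.2 CPM in KO (95% intervals of the log2 fold change from -0.15 to 0.07 with PT2385 and from -0.13 to 0.14 in KO).

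The snoRNA host genes, whose introns carry the guide RNAs for modification of ribosomal and spliceosomal RNA, were not called with PT2385 in any of 29 tested genes, of which 21 are members. With edgeR 5 of the 29 had an unadjusted p under 0.05 with PT2385, 3 higher and 2 lower, and DESeq2 called 0. In KO, 6 members were higher (20.7% of the 29, against 14.7% of all genes) and 2 lower (6.9%, against 15.4%), and the median log2 fold change of the 29 genes was 0.02, against 0.00 over all genes tested. The higher ones were SNHG18, SNHG14 (0.40, adjusted p = 0.00919), SNHG32 (0.40, adjusted p = 0.0279), DANCR (0.34, adjusted p = 0.0128), SNHG29 (0.25, adjusted p = 0.0134) and SNHG4 (0.24, adjusted p = 0.0463). SNHG4 had overlapping groups, missed the threshold in DESeq2 (adjusted p = 0.0588) and was called in 2 of the 6 fits with a library left out. SNHG12 was lower, with 61.95, 71.6 and 77.7 CPM in WT, 50.8, 56.7 and 64.9 CPM with PT2385 and 47.6, 46.7 and 54.5 CPM in KO (log2 fold change -0.49, standard error 0.092, adjusted p = 0.0021), and so was SNHG17. With the replicate number as a block, SNHG12 was also lower with PT2385 (adjusted p = 0.00307), and SNHG4, SNHG8 and SNHG14 were higher (adjusted p = 0.0139, 0.039 and 0.0221). GAS5, a growth arrest transcript, was not called in any comparison and overlapped between the groups, with 113, 119 and 128 CPM in WT, 110.4, 119.6 and 123 CPM with PT2385 and 113, 109.9 and 119.8 CPM in KO.

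**Figure D4:**
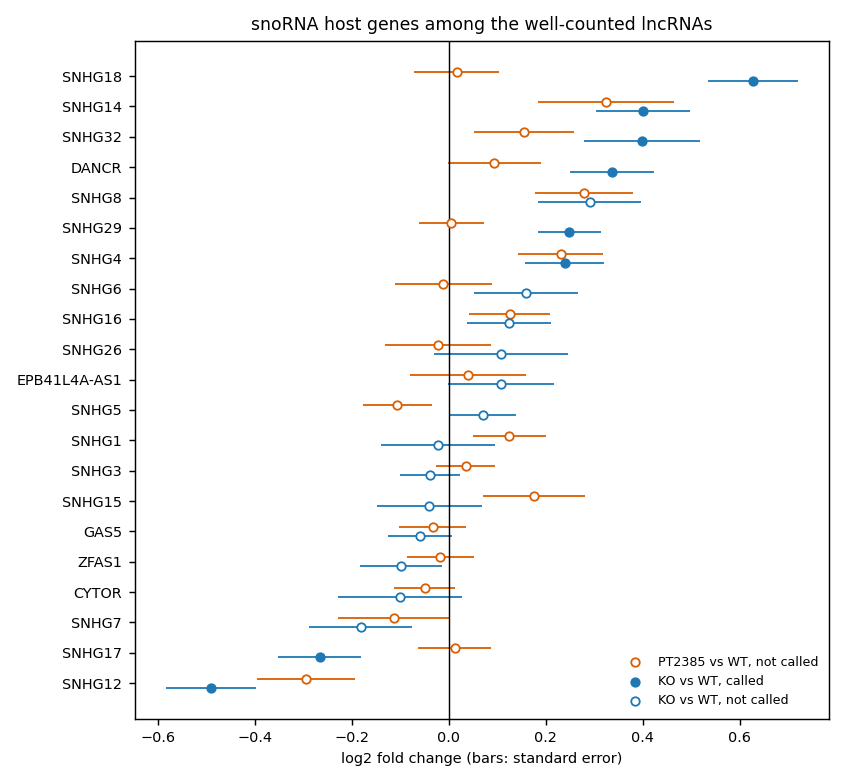
Log2 fold change (horizontal axis) with its standard error of the 21 snoRNA host genes among the members, for PT2385 vs WT (orange) and KO vs WT (blue), with filled points for called genes. The blue points run from -0.49 (SNHG12) to 0.63 (SNHG18), and none of the orange points is filled.

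The host genes of miRNAs included 24 tested genes, of which 0 were higher and 5 lower with PT2385 and 5 were higher and 3 lower in KO. These are 20.8% lower with PT2385, against 4.62% of all genes, and 20.8% higher and 12.5% lower in KO, against 14.7% and 15.4%. Members made up 13 of the list. The list left out MIR1915HG, which was higher in both comparisons, so its count of 0 higher depends on the choice of genes. Of the 18 members that hold a miRNA hairpin of the RefSeq set used here, 1 was higher and 1 lower with PT2385 (5.56% each). That set placed no hairpin in PVT1, so PVT1, which was lower with PT2385, is not among the 18. In KO 5 of these 18 were higher (27.8%) and 3 lower (16.7%). Of the 24 listed genes, 2 were higher and 9 lower with PT2385 at an unadjusted p under 0.05 in edgeR. DESeq2 called 0 of the 24 higher and 4 lower. Besides MIR193BHG and PVT1, the genes lower with PT2385 were the less counted MIR210HG (log2 fold change -1.63, adjusted p = 0.000834), MIR155HG (log2 fold change -0.75, adjusted p = 0.0027) and MIR181A2HG (log2 fold change -0.81, adjusted p = 0.0314). In KO the members MIR34AHG, LINC00472, MIR22HG and MIR4435-2HG were higher, the last by 0.42 (adjusted p = 0.00883), and so was the less counted MIR100HG (log2 fold change 1.79, adjusted p = 6.28e-05). MIR193BHG, MIR210HG and MIR155HG (log2 fold change -1.73, adjusted p = 7.67e-05) were lower. Mature miRNAs of the member hosts described above are given below, chosen by hand from both arms of each hairpin, from RefSeq on GRCh38.p14, with the seed (bases 2 to 8) in capitals, because it is the seed that pairs with target mRNAs.
miR-193b-3p, in MIR193BHG, chr16:14304017-14304038, plus strand: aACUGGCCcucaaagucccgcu
miR-365a-3p, in MIR193BHG, chr16:14309340-14309361, plus strand: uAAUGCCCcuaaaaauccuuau
miR-1915-3p, in MIR1915HG, chr10:21496576-21496595, minus strand: cCCCAGGGcgacgcggcggg
miR-34a-5p, in MIR34AHG, chr1:9151735-9151756, minus strand: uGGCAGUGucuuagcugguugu
miR-30a-5p, in LINC00472, chr6:71403595-71403616, minus strand: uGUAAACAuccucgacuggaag
miR-30c-5p, in LINC00472, chr6:71377003-71377025, minus strand: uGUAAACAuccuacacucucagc
Of these 6 sequences, miR-30a-5p and miR-30c-5p share a seed. The counts measure the host transcripts and not the mature miRNAs. The let-7 hosts MIRLET7BHG and MIRLET7A1HG, which carry the shared seed GAGGUAG, were not called in any comparison. CYTOR and MIR4435-2HG lie on either arm of chromosome 2 and share the sequence of miR-4435. CYTOR was not called in KO (-0.10, adjusted p = 0.6), and as the 2 genes are near-identical copies over part of their length, reads may be split between them.

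Of the lncRNA genes listed as responsive to hypoxia or HIF, 13 could be tested, and 3 were lower and 0 higher with PT2385, against 4 lower and 1 higher in KO. With PT2385 1 was higher at an unadjusted p under 0.05 in edgeR, and DESeq2 called 2 lower and 0 higher. The lower genes are 23.1% of the 13 with PT2385 and 30.8% in KO, against 4.62% and 15.4% of all genes. This list and the other gene lists were chosen with earlier results of these data known. Such shares are therefore a description and no test of a list. The 3 were LUCAT1, PVT1 and MIR210HG, the host of the hypoxia-induced miR-210. In KO, LUCAT1, MIR210HG (log2 fold change -1.98, adjusted p = 9.02e-05), UCA1 and NPTN-IT1 were lower and NEAT1 was higher. The median log2 fold change of the list was -0.23 with PT2385 and -0.10 in KO, against 0.00 over all genes. H19 and HOTAIR, on the same list, had mean counts of 0.111 and 1.11 and were not tested. Of 15 tested genes listed in renal cancer, LUCAT1 and PVT1 were lower with PT2385 (13.3%, against 4.62% of all genes). In KO LUCAT1, CRNDE and EGOT were lower (20%, against 15.4%) and NEAT1 higher (6.67%, against 14.7%).

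Among 7 tested lncRNA genes tied to p53 and DNA damage, PVT1 was called lower with PT2385 (14.3%, against 4.62% of all genes). In KO, 8 could be tested and MIR34AHG, NEAT1 and PURPL were higher (37.5%, against 14.7% of all genes). PURPL is a p53-induced gene below the limit of the set (log2 fold change 2.85, adjusted p = 0.00299). LINC-PINT, a p53-induced transcript, had 90.2, 73.6 and 56.02 CPM in WT, 72.3, 59.3 and 44.99 CPM with PT2385 and 81.1, 55.3 and 62.6 CPM in KO. Its WT and PT2385 libraries overlapped and it was not called (log2 fold change -0.32, standard error 0.17, adjusted p = 0.32), but the block on the replicate number gave an adjusted p of 0.00161. Among the HOX cluster genes, 0 of 7 tested with PT2385 and 1 of 8 in KO (HOXA11-AS, higher) were called. These are 0% and 12.5%, against 7.7% and 30.1% of all genes. At an unadjusted p under 0.05 in edgeR, 1 of the 7 was lower with PT2385, and in KO 4 of the 8 were higher and 1 lower. The median log2 fold change of the 8 in KO was 0.44, against 0.00 over all genes tested. DESeq2 called 0 HOX cluster genes in either comparison. The member HAGLR, at the HOXD cluster, had 43.3, 44.02 and 37.01 CPM in WT, 36.1, 37.3 and 30.2 CPM with PT2385 and 35.6, 32.98 and 35.6 CPM in KO, and passed with PT2385 with the block alone (adjusted p = 0.0187, against 0.151 without it). Of the imprinted or X-linked regulators SNHG14, KCNQ1OT1, FTX and JPX, SNHG14 was called, in KO. That is 25% of the 4 tested, against 30.1% of all genes. KCNQ1OT1, which silences its neighbours on the paternal chromosome 11, had 278, 295 and 277 CPM in WT, 329, 291 and 247 CPM with PT2385 and 359, 388 and 264 CPM in KO (log2 fold change 0.26, standard error 0.12, adjusted p = 0.111). FTX and JPX overlap each other on opposite strands, so their reads carry the same doubt about strand.

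A coding gene overlapping or adjoining a member could be tested beside it in 72 pairs. With PT2385, 5 of these lncRNA genes were called, and the coding gene was called with them in 3 pairs, 2 in the same direction and 1 in the opposite one. In KO, 22 were called, and in 12 pairs both were, 10 in the same direction and 2 in opposite directions. Between KO and PT2385, 15 were called, and of 8 pairs with both called 7 had the same direction and 1 the opposite. Across the 72 pairs, which share libraries and partly reads, Pearson's r of the log2 fold changes was 0.46 with PT2385, 0.57 in KO and 0.41 between KO and PT2385. Of the 72 members that share no exonic base with a coding gene, 10 (13.9%) were called with PT2385, 28 (38.9%) in KO and 16 (22.2%) between KO and PT2385. Of the 75 that share some, 6.67, 28 and 16% were called, and of all genes tested 7.7, 30.1 and 18.8%. The difference between these sets of members was not tested.

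CCDC183-AS1 fell beside CCDC183, which shares 26.1% of its exonic bases, and the coding gene changed by more (log2 fold change -1.23, standard error 0.23, adjusted p = 0.00696 with PT2385 and log2 fold change -3.72, standard error 0.30, adjusted p = 4.7e-06 in KO). CCDC183 was little counted, with a mean count of 46.6 and mean levels of 7.46 CPM in WT, 3.16 CPM with PT2385 and 0.55 CPM in KO. APCDD1L-DT fell beside APCDD1L, with which it shares 0.316% of its bases (log2 fold change -0.96, standard error 0.11, adjusted p = 0.000154 with PT2385 and log2 fold change -1.53, standard error 0.15, adjusted p = 2.84e-05 in KO). In KO the same held for OIP5-AS1 and the centromere gene OIP5 (log2 fold change -0.85, standard error 0.15, adjusted p = 0.00125), for GABPB1-AS1 and the transcription factor gene GABPB1 (log2 fold change -0.68, standard error 0.13, adjusted p = 0.002), and for FOXP1-IT1 inside FOXP1 (log2 fold change -0.50, standard error 0.057, adjusted p = 6.75e-05). SNHG14, which runs antisense through the ubiquitin ligase gene UBE3A and in neurons silences its paternal copy, rose while UBE3A fell (log2 fold change -0.69, standard error 0.066, adjusted p = 1.87e-05). UBE3A had 3.47 times the raw reads of SNHG14, a ratio not scaled to length and so no comparison of levels. SNHG14 has 123 kb of merged exon, and the 2 genes share 2.5% of its exonic bases. SNHG18 rose by 0.63 and its divergent neighbour SEMA5A, a semaphorin, fell by less (log2 fold change -0.21, standard error 0.065, adjusted p = 0.0335). PRR7-AS1 and the kinase gene GRK6 moved in opposite directions with PT2385 (log2 fold change -0.41, standard error 0.085, adjusted p = 0.0119 for GRK6) and between KO and PT2385 (log2 fold change 0.62, standard error 0.077, adjusted p = 0.00029). LINC00472 rose in KO beside an uncalled OGFRL1 (log2 fold change 0.17, standard error 0.11, adjusted p = 0.282).

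**Figure D5:**
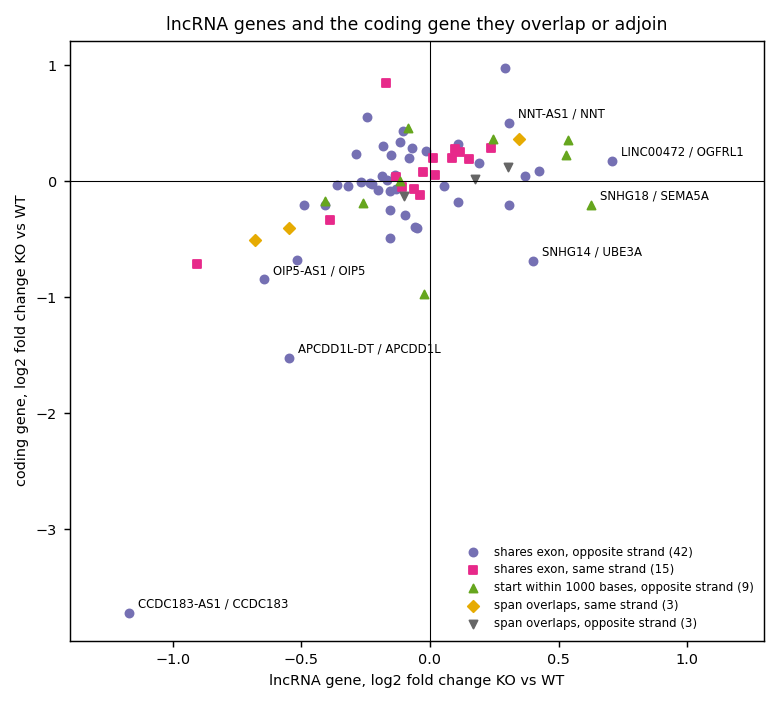
Log2 fold change in KO vs WT of 72 members (horizontal axis) against that of the coding gene each overlaps or adjoins (vertical axis); colours and shapes give the kind of overlap, with the number of pairs. CCDC183-AS1 with CCDC183 (-1.17 and -3.72) lies at the lower left, and SNHG14 with UBE3A (0.40 and -0.69) and SNHG18 with SEMA5A (0.63 and -0.21) lie at the lower right.

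In part of the members the same replicate number gave the lowest or the highest library in every group. In 26 members (17.7%) replicate 3 was the lowest library in all 3 groups, against 10.2% of genes with a mean count of at least 200, and in 15 members (10.2%) it was the highest in all 3, against 18.9%. Replicate 2 was the lowest in all groups in 3 members and the highest in 4. The 26 included MALAT1, KCNQ1OT1, FTX, HELLPAR, LINC02615 and SNHG14. HELLPAR, a single long transcript, had 34.7, 32.9 and 27.5 CPM in WT, 33.3, 24.5 and 11.7 CPM with PT2385 and 32.9, 24.99 and 22.98 CPM in KO, a spread of 46.9% of its mean with PT2385. What the replicate numbers stand for is not given in the sources used here, and its part in the results was not tested beyond the block on the number.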

How the data were processed

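RNA of 9 libraries of 786-0 cells was sequenced in 3 groups of 3. According to the methods and processing notes of the study, reads were trimmed with cutadapt, aligned to hg38 with STAR and assigned to genes with featureCounts, and the authors deposited raw counts per gene without normalization. The annotation release, strandedness and RNA selection are not given in the sources used here. All 9 columns were mapped to samples by their labels, with 0 left unmapped. Of the 58735 identifiers, 58207 were matched to GENCODE release 44, which supplied types, positions and exon overlaps. The members and gene lists were chosen with earlier results of these data known.

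Each pair of groups was fitted with edgeR 4.0.16 in R 4.3.3 (TMM scaling, filterByExpr with a minimum count of 10, quasi-likelihood test) over all genes, with Benjamini-Hochberg adjustment and a threshold of 0.05. CPM values use TMM-scaled library sizes. The pipeline was tested on simulated counts. Depth was 11881000 to 14730081 reads per library. Same-numbered libraries were checked for shared deviations from their group means over 10140 genes: for PT2385 and WT Pearson's r was 0.453, 0.137 and 0.431 for numbers 1 to 3. A block on the number was therefore fitted as well. Its values are printed for only some of the genes whose call it changed, and the other calls it added are given as counts. Alternatives were DESeq2 1.42.0, scaling by RLE, by the upper quartile or by library size alone, low counts left in, the replicate block, all 9 libraries in 1 model, a test against a 1.5-fold change, each replicate left out, a mean count of at least 400, and members without exonic overlap. Named were the 10 most counted members, the 10 called members with the largest change in each direction of each comparison, members of the lists, their coding partners, the genes at the limit, and EPAS1. Other genes (among them HELLPAR, LINC02693, MUC20-OT1, NNT-AS1, WARS2-AS1, LINC01508, LINC00205 and the listed genes below the limit) were named after their values were seen.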

Additional observations from a re-analysis of the deposited data

How the results depend on the processing

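The count of lncRNA genes called with PT2385 (15) was 39 with the replicate block, 25 with no filter on low counts, 3 in a test against a 1.5-fold change and 5 of the 61 members with a mean count of at least 400, and it ran from 7 to 22 with 1 library left out. In KO against WT (49) it was 9 against 1.5-fold, 25 of 61 at the higher mean count, 28 of the 72 members without exonic overlap, and 33 to 57 with 1 library left out. Between KO and PT2385 (28) it was 3 against 1.5-fold, 12 of 61, 16 of 72, and 14 to 27 with 1 library left out. The smaller sets hold fewer genes by construction, and for the other changes the cause was not tested. The other alternatives (DESeq2, the 3 other scalings, all 9 libraries in 1 model) stayed within 1.5 times of each count, with 11 to 16, 44 to 49 and 26 to 32 calls. The numbers of KO libraries did not all deviate with those of WT (r = 0.319, 0.0560 and 0.481) or PT2385 (0.348, 0.0915 and 0.415), although KO replicates 1 and 3, unlike KO replicate 2, correlated best with their own number in both groups. The replicate block called 59 members in KO against WT (40.1%, against 36.2% of all genes and 44.7% of those with a mean count of at least 200) and 38 between KO and PT2385 (25.9%, against 24.6% and 30.2%), and these included all 49 and all 28. LUCAT1 passed between KO and PT2385 with the block (adjusted p = 0.0166). Without PT2385 replicate 1, 69.6% of the calls between KO and PT2385 were higher, against 50% with all libraries. Without MALAT1 and NEAT1 the difference in the share of reads on members turned from 0.0814 to -0.0344 percentage points with PT2385 and from 0.186 to -0.0248 in KO, while leaving out 1 library gave 0.0187 to 0.165 and 0.108 to 0.285. Over the named members, 69 in each comparison, 0 log2 fold changes of a called gene turned direction. Counting error is small at these depths, and with 3 libraries a group the spread between them limits the smallest difference that could be called.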
